A study of Mus musculus with 12 samples.

Results

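Collagens are trimers of chains, each chain the product of its own gene, and 44 of the 25203 genes in the deposited table carry a collagen chain symbol (Col, a type number, a, and a chain number). All 44 were taken as members, with no use of their measured values. By the class of collagen they form, 11 are fibrillar, 9 network-forming, 9 FACITs (fibril-associated collagens with interrupted triple helices), 6 beaded-filament (type VI), 4 transmembrane and 2 multiplexins, and the other 3 are Col7a1 of anchoring fibrils, Col26a1 and Col28a1. RNA was measured in 12 libraries, 3 for each of 4 groups, from cultures of primary mouse stromal fibroblasts named Pdgfra-lo-H2B-GFP after a nuclear green fluorescent reporter, labelled mesenchyme and taken from a study of intestinal stroma. TGFB1_KO cultures lacked the receptor gene Tgfbr2 and were given the ligand TGFβ-1, Vehicle_Tgfbr2KO cultures lacked Tgfbr2 and were given vehicle, TGFB1 cultures had intact Tgfbr2 and were given TGFβ-1, and Vehicle cultures had intact Tgfbr2 and were given vehicle. The study's stated purpose was to measure TGFB activity in these fibroblasts and, with the knockout cells, any TGFB1 effect that bypasses the canonical pathway. The labels used here do not give the dose, the time, the animals' age, how Tgfbr2 was deleted, or whether the 3 libraries of a group came from separate animals. The p-values below thus set a difference between groups against the scatter of libraries, and that scatter may be technical.

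Collagen chains carry long runs in which glycine recurs at a fixed spacing, and they trimerise in the endoplasmic reticulum after their prolines and lysines are hydroxylated. Fibrillar chains are trimmed outside the cell and cross-linked into fibrils, in which type I gives the bulk, and types V and XI set where fibrils start and how thick they grow. Type IV forms the sheet of basement membranes, type VI a microfibril network near cells, and FACITs sit on fibril surfaces. TGFB1 binds a receptor complex that needs TGFBR2 and, through SMAD2 and SMAD3, is known as an inducer of collagen genes in fibroblasts, including those of the gut wall in fibrosis.

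Promoter windows of 300 bases, from 250 before to 50 after a gene's start, were available in RefSeq (GRCm38.p6) for 35 of the 44 members (38 windows, since some genes have more than 1 start) and for 20 of the 24 members that could be tested. The windows shown are those of the 3 fibrillar or anchoring-fibril genes with the largest TGFB1 responses (Col5a3 at chr9:20815018-20815317, minus strand, Col7a1 at chr9:108953336-108953635, plus strand, Col11a1 at chr3:114030290-114030589, plus strand), of the neighbouring type VI genes that were lower with TGFB1 (Col6a1 at chr10:76725995-76726294, minus strand, Col6a2 with 2 starts at chr10:76623581-76623880, minus strand and chr10:76623355-76623654, minus strand), and the stretch that the windows of Col4a1 and Col4a2 share (chr8:11312777-11312854, plus strand). Each is written 5′ to 3′ along its gene's strand, the shared stretch along the strand of Col4a2. Capitals mark every match, on either strand, to CAGAC (a SMAD-binding element), GTCTAGAC (the palindromic SMAD site, which has no match to the shorter one), TGANTCA (the AP-1 site), CCAAT (the box bound by the factor NF-Y) and GGGCGG (the GC box).
Col5a3: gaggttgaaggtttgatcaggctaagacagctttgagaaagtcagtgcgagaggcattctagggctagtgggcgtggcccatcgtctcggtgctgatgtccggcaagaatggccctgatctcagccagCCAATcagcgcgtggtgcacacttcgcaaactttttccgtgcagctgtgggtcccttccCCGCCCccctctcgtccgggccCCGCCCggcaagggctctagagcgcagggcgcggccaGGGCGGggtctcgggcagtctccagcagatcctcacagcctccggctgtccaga
Col7a1: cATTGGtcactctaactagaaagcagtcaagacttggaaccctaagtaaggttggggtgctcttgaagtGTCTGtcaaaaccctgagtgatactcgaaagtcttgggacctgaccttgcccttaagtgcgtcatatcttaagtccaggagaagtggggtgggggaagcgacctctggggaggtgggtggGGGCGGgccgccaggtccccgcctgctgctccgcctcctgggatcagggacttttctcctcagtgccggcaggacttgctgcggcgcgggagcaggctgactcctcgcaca
Col11a1: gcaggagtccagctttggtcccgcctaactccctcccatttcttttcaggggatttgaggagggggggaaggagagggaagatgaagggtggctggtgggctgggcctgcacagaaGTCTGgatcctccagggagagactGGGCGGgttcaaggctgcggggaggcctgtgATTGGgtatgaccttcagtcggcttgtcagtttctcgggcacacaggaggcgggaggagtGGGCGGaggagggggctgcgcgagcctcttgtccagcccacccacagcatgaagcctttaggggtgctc
Col6a1: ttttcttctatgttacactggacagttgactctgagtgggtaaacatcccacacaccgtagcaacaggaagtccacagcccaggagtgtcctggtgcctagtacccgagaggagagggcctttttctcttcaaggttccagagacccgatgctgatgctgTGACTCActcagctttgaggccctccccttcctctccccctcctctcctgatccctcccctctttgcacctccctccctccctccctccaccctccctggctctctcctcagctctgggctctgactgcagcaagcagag
Col6a2 upstream start: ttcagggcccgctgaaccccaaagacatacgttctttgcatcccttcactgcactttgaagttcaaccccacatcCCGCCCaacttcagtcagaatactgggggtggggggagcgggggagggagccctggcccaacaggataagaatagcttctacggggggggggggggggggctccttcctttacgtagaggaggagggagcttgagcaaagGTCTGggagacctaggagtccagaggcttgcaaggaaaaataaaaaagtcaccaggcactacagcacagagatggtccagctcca
Col6a2 downstream start: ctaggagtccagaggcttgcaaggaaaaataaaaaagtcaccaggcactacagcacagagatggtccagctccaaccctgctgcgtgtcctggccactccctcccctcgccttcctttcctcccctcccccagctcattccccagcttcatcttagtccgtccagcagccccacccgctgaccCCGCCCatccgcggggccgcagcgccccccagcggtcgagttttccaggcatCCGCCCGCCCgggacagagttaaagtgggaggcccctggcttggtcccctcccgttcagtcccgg
Col4a1 and Col4a2 shared stretch: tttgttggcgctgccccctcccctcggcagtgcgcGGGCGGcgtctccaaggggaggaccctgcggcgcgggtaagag
Among all 32851 windows of the table, 49.6% hold CAGAC, 0.213% GTCTAGAC, 7.81% TGANTCA, 37.4% CCAAT and 35.7% GGGCGG. Among the 38 member windows the shares are 52.6% for CAGAC, 34.2% for CCAAT and 60.5% for GGGCGG, GTCTAGAC is in none, and TGANTCA is in 1, that of Col6a1, which holds no match to the other motifs. In the downstream Col6a2 window 2 GC boxes share 2 bases. Col4a1 and Col4a2 are transcribed away from each other, and their windows overlap by 78 bases that contain 1 GC box. These matches are descriptions of the letters in the windows.

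Of the 44 members, 24 reached 1 FPKM (fragments scaled to transcript length and library total) in at least 3 of the 12 libraries and were tested. Across group means 21 members reached 5 FPKM in at least 1 group and 11 exceeded 100 FPKM. Col1a1 had the highest mean level in all 4 groups, 1705 FPKM in TGFB1_KO, 1189.7 in Vehicle_Tgfbr2KO, 4046 in TGFB1 and 2864 in Vehicle cultures. Below it in Vehicle cultures came Col1a2 at 1549.8 ± 668 FPKM (mean ± SD, n = 3, as throughout), Col3a1 at 994 ± 644, Col4a1 at 891 ± 75.0 and Col4a2 at 584 ± 42.2 FPKM. Col1a2 was above Col3a1 and Col4a1 in each Vehicle library, while Col3a1 was below Col4a1 in replicates 1 and 2 and above it in replicate 3. The 20 untested members stayed under 1 FPKM in all 12 libraries. The highest single values among them were 0.823 FPKM for Col4a6, 0.725 for Col11a2 and 0.693 for Col20a1. All 4 transmembrane chains (Col13a1, Col17a1, Col23a1, Col25a1), all 3 chains of cartilage type IX and Col2a1, the type II chain of cartilage, are among the 20. Of the 20, 8 were at 0 in at least 1 library. A few of these low chains were uneven between groups and are named here after their values were seen, with no test. Col28a1 had 0.402, 0.259 and 0.373 FPKM in TGFB1_KO, 0.097, 0.15 and 0.295 in Vehicle_Tgfbr2KO, 0.0403, 0.0144 and 0.0135 in TGFB1 and 0.0751, 0.195 and 0.513 in Vehicle libraries, and Col13a1, a transmembrane chain, was listed at 0 in 2 of the 3 TGFB1 libraries. Col4a3, a chain of specialised basement membranes, ran the other way, with 0.377, 0.198 and 0.167 FPKM in TGFB1 and 0.102, 0.0439 and 0.0529 in Vehicle libraries.

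Summed over all 44 chains, collagen FPKM was 4269.9, 5079 and 8496 in the TGFB1_KO libraries, 3392, 4718 and 4574 in Vehicle_Tgfbr2KO, 9857, 10387 and 11006 in TGFB1 and 7381, 6470.2 and 11276 in Vehicle. This was 1.15 ± 0.459%, 0.838 ± 0.153%, 1.85 ± 0.0961% and 1.65 ± 0.517% of each library's total FPKM in TGFB1_KO, Vehicle_Tgfbr2KO, TGFB1 and Vehicle. The 3 TGFB1 libraries lay close together, while Vehicle replicate 3 was above all of them and TGFB1_KO replicate 3 stood well above the other TGFB1_KO libraries. Fibrillar chains made up 65.1 ± 8.93% of collagen FPKM in TGFB1_KO, 57.6 ± 7.43% in Vehicle_Tgfbr2KO, 76.9 ± 1.27% in TGFB1 and 72.3 ± 5.69% in Vehicle cultures. Network chains made up 25.4 ± 7.10%, 31.3 ± 5.78%, 17.9 ± 1.19% and 20.1 ± 4.48% in the same order of groups, and FACITs 5.08 ± 1.52%, 6.33 ± 1.36%, 1.80 ± 0.235% and 3.60 ± 0.902%. These summed levels and shares were not tested.

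**Figure D1:**
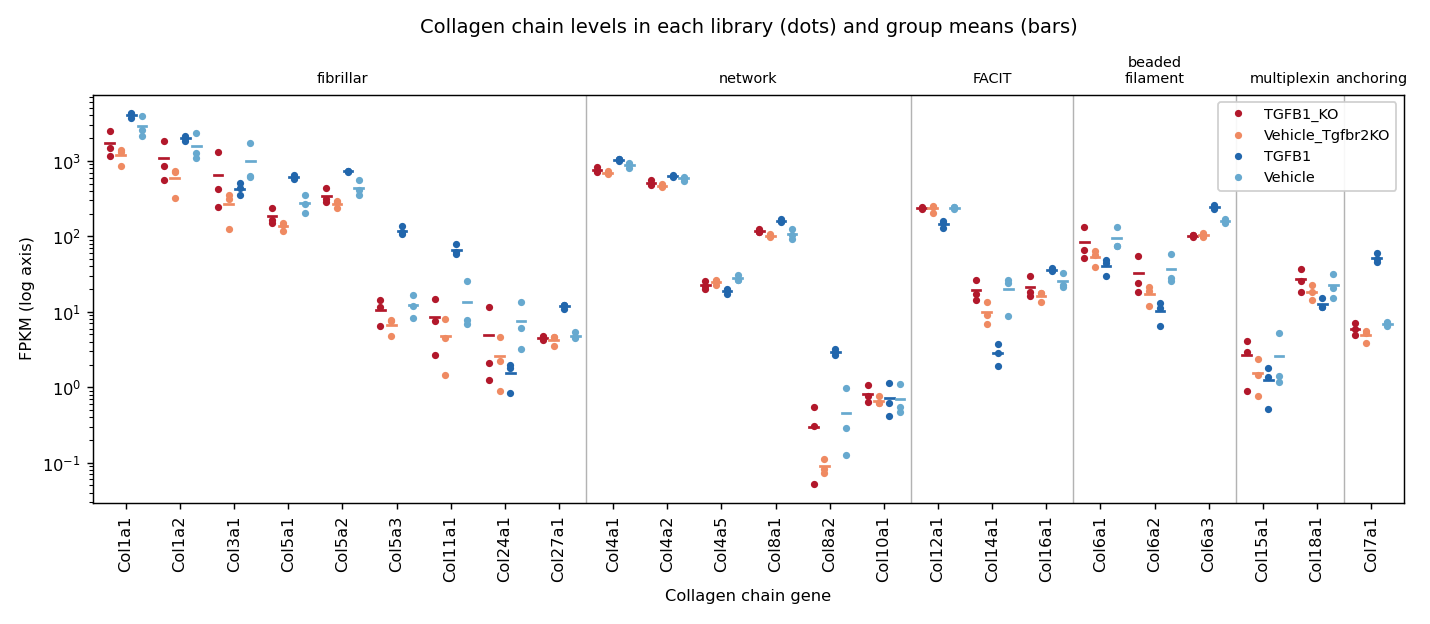
FPKM (log axis) of the 24 tested collagen chains in each of the 12 libraries (dots) with group means (bars), by class. TGFB1 libraries stand above all other libraries for Col5a1, Col5a2, Col5a3, Col11a1, Col27a1, Col4a1, Col8a1, Col8a2, Col16a1, Col6a3 and Col7a1, and below all others for Col12a1, Col14a1 and, narrowly, Col4a5.

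Replicate 3 stood apart for collagen in most groups. It was the highest library for 18 of 24 tested chains in TGFB1_KO, 10 in Vehicle_Tgfbr2KO, 15 in TGFB1 and 19 in Vehicle, where over all tested genes its share was 40.5%, 37.8%, 32.3% and 38.4%. Relative depth, read from the most frequent ratio of low values, ranged from 0.744 to 1.25 of that of Vehicle replicate 1 and was 0.744 to 0.800 in TGFB1 libraries, and library sums from 498669 to 569510 FPKM. Tgfbr2 itself had 31.6, 38.0 and 62.4 FPKM in TGFB1_KO, 27.0, 35.2 and 41.9 in Vehicle_Tgfbr2KO, 56.5, 70.6 and 74.6 in TGFB1 and 48.0, 38.2 and 78.8 in Vehicle libraries, and did not pass the test between Vehicle_Tgfbr2KO and Vehicle (log2 difference -0.61, adjusted p = 0.26). Which part of the gene was deleted is not given, and a whole-gene value does not check a deletion of part of it. Summed markers of fibroblasts, without collagens, were 2158 to 2516 FPKM in TGFB1_KO, 1988 to 2191 in Vehicle_Tgfbr2KO, 2473 to 2604 in TGFB1 and 2072 to 2478 in Vehicle libraries. Of these 7 markers Vim was higher and Fbln1 and Pdgfra were lower in TGFB1 than in Vehicle. Pdgfra, the gene behind the reporter and a fibroblast marker, fell with TGFB1 in intact cultures (log2 change -3.16, SE 0.38, adjusted p = 0.000197). Markers of smooth muscle and pericytes summed to 4146 to 6443 in TGFB1_KO, 5123 to 5592 in Vehicle_Tgfbr2KO, 8296 to 9376 in TGFB1 and 5191 to 6430 in Vehicle libraries, and of their 9 genes 4 were higher and 1 lower in TGFB1 than in Vehicle. Leukocyte markers summed to 198 to 393, 315 to 477, 14.1 to 316 and 39.8 to 639 FPKM in TGFB1_KO, Vehicle_Tgfbr2KO, TGFB1 and Vehicle libraries, and of their 9 genes 1, Cd14, was lower in TGFB1 than in Vehicle. Summed endothelial markers were at most 16.3 FPKM, epithelial 65.0, mesothelial 5.94, and glial and neuronal 1.16. Chondrocyte markers summed to 1.19 to 1.303 FPKM in TGFB1_KO, 1.17 to 1.68 in Vehicle_Tgfbr2KO, 1.88 to 2.61 in TGFB1 and 1.12 to 1.53 in Vehicle libraries. Acan, Matn1 and Cnmd were at 0 in all TGFB1 libraries, as were Matn1 in all Vehicle and Cnmd in all Vehicle_Tgfbr2KO libraries. Acan was at most 0.0144 FPKM in any library. Sox9, the 1 chondrocyte marker tested, was higher in TGFB1 than in Vehicle (log2 change 0.55). Of the 2 epithelial markers tested, Krt19 was lower in TGFB1 than in Vehicle (-1.12). The part of these cell types in the results below was not tested. In bulk cultures, fewer cells of a type and less RNA per cell cannot be told apart.

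TGFB1 against vehicle in cultures with intact Tgfbr2 asks how the ligand changes these cells. Collagen chains moved in both directions. Of the 24 tested chains 9 rose (37.5%, against 17.3% of all 12641 tested genes) and 5 fell (20.8%, against 14.6%), in limma with Benjamini-Hochberg adjustment over all tested genes at 0.05. The median log2 change of the 24 was 0.34, against 0.02 over all tested genes. The chains that rose were Col5a1, Col5a2, Col5a3, Col11a1 and Col27a1 (fibrillar), Col8a1 and Col8a2 (network), Col6a3 (type VI) and Col7a1 (anchoring fibrils), and those that fell were Col12a1 and Col14a1 (FACITs), Col6a1 and Col6a2 (type VI) and Col4a5 (network). Col8a2 passed the filter on low levels through TGFB1 libraries alone and so had to differ, which leaves 8 chains that rose besides it. By class, 5 of 9 tested fibrillar chains rose and 0 fell (median 0.77), of the network chains other than Col8a2, Col8a1 rose and Col4a5 fell, 2 of 3 FACITs fell (median -0.71), and of the 3 type VI chains 1 rose and 2 fell (median -1.16). In Tgfbr2KO cultures no chain passed the same test (nor did any other gene, 0%). For many chains the text below thus also gives the TGFB1 change in the knockout or the test of the difference between genotypes. This last is the interaction (the knockout change minus the intact change). That test was negative, a smaller rise or larger fall in the knockout, for 5 chains, Col8a2 among them (20.8%, against 9.26% of all genes) and positive for 4 (16.7%, against 8.38%). Deviations of same-numbered libraries ran together within each genotype, so the same fit with the replicate number as a block is given where it changes a call. With that block 11 chains rose and 8 fell with TGFB1 in intact cultures, and the interaction was negative for 8 and positive for 7. The block also raised the number of called interactions over all tested genes. The shares of all genes given above are from the fit without it, so these larger counts are not read as particular to collagen chains. Without TGFB1 replicate 1, 3 chains fell and the interaction was positive for 2, as it was without Vehicle_Tgfbr2KO replicate 1.

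**Figure D2:**
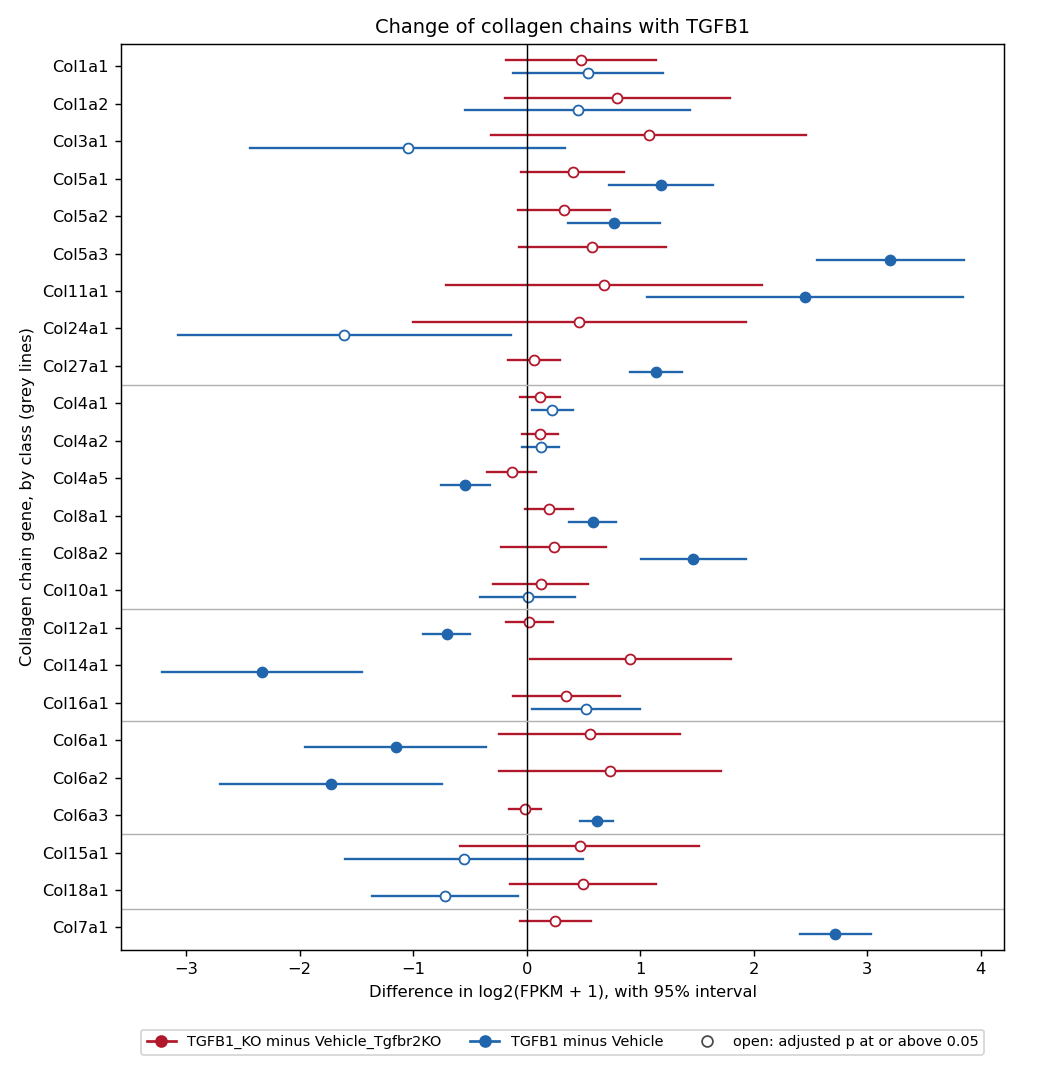
Change of the 24 tested chains with TGFB1, as the difference in log2(FPKM + 1) with its 95% interval, in Tgfbr2KO cultures (red, above) and in intact cultures (blue, below); filled points have an adjusted p under 0.05, and grey lines part the classes. Filled points occur for the intact comparison alone, 9 to the right of 0 and 5 to the left.

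Types V and XI, the fibrillar collagens that nucleate and limit fibrils, held the largest rises among the fibrillar chains. Col5a3 had 6.52, 11.5 and 14.1 FPKM in TGFB1_KO, 4.71, 7.56 and 7.75 in Vehicle_Tgfbr2KO, 114, 106 and 135 in TGFB1 and 11.8, 8.37 and 16.9 in Vehicle libraries. The 3 TGFB1 libraries were thus far above all 9 others. The Vehicle_Tgfbr2KO libraries lay below the Vehicle ones, and the TGFB1_KO libraries overlapped both. Against Vehicle, the TGFB1 mean was 9.58-fold higher (log2 change 3.20, SE 0.29, adjusted p = 3.67e-05), in the knockout the log2 change was 0.58 (adjusted p = 0.738), and the interaction was -2.63 (adjusted p = 0.00236). Col11a1 had 2.69, 7.57 and 14.9 FPKM in TGFB1_KO, 1.43, 4.55 and 8.13 in Vehicle_Tgfbr2KO, 61.9, 58.8 and 79.2 in TGFB1 and 7.90, 6.88 and 25.2 in Vehicle libraries. Its spread was wide outside the TGFB1 group, with replicate 3 the highest in every group. Col11a1, the first chain of type XI, rose 5.00-fold in intact cultures (log2 change 2.45, SE 0.63, adjusted p = 0.0136), a call lost without Vehicle replicate 2 (adjusted p = 0.0524), and changed by 0.68 in the knockout (adjusted p = 0.757). Its interaction of -1.78 passed with the block (adjusted p = 0.0269) and not without it (adjusted p = 0.195).

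The other type V chains rose less and stood at much higher levels. Col5a1 had 149, 166 and 238 FPKM in TGFB1_KO, 119, 151 and 141 in Vehicle_Tgfbr2KO, 606, 568 and 652 in TGFB1 and 267, 204 and 349 in Vehicle libraries. Col5a2 had 287, 313 and 440.0 FPKM in TGFB1_KO, 239, 283 and 294 in Vehicle_Tgfbr2KO, 720.1, 729 and 739 in TGFB1 and 405, 351 and 552 in Vehicle libraries. For both genes all 3 TGFB1 libraries exceeded every other library. Col5a1 rose 2.23-fold (log2 change 1.18, SE 0.21, adjusted p = 0.00184) and Col5a2 1.67-fold (log2 change 0.77, adjusted p = 0.00933) in intact cultures. In the knockout the log2 changes were 0.40 and 0.33, each positive in 3 of 3 same-numbered pairs but short of the threshold (adjusted p = 0.738 for both). The interaction of Col5a1, -0.78, passed with the block (adjusted p = 0.0293) and not without it (adjusted p = 0.0923), and that of Col5a2, -0.44, passed neither with it (adjusted p = 0.102) nor without it (adjusted p = 0.27). Col27a1 had 4.56, 4.71 and 4.17 FPKM in TGFB1_KO, 4.57, 4.69 and 3.50 in Vehicle_Tgfbr2KO, 12.3, 12.5 and 10.8 in TGFB1 and 4.65, 5.40 and 4.47 in Vehicle libraries. For this minor fibrillar chain, known from cartilage, the 9 libraries outside the TGFB1 group lay within a narrow band. It rose 2.45-fold in intact cultures (log2 change 1.14, SE 0.10, adjusted p = 3.54e-05), and its interaction was -1.07 (adjusted p = 0.00104).

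The most abundant fibrillar chains did not pass the TGFB1 test. Col1a1 had 1166, 1469 and 2478 FPKM in TGFB1_KO, 845, 1395 and 1329 in Vehicle_Tgfbr2KO, 3737, 4110.4 and 4291 in TGFB1 and 2546, 2165 and 3881 in Vehicle libraries. TGFB1 replicate 1 was below Vehicle replicate 3, so the intact groups overlapped, although TGFB1 was above Vehicle in 3 of 3 same-numbered pairs. The log2 change of Col1a1 was 0.54 in intact cultures (adjusted p = 0.197) and 0.48 in the knockout (adjusted p = 0.738), and the difference of the changes was -0.06, with a 95% interval from -0.99 to 0.87. Col1a2, the partner chain of type I, changed by 0.45 (adjusted p = 0.488) and 0.80 (adjusted p = 0.738) in the same comparisons. Col3a1 had 242, 419 and 1304 FPKM in TGFB1_KO, 126, 312 and 358 in Vehicle_Tgfbr2KO, 349.9, 430.0 and 501 in TGFB1 and 635, 609.6 and 1738 in Vehicle libraries. All 3 TGFB1 libraries of this type III chain lay below the Vehicle ones, while Vehicle replicate 3 and TGFB1_KO replicate 3 were each more than 2-fold above the others of their group. Its log2 change of -1.05 in intact cultures passed with the replicate block (adjusted p = 0.0409) and not without it (adjusted p = 0.233), as did its interaction of 2.12 (adjusted p = 0.0136 with and 0.126 without). Col24a1, a minor fibrillar chain, had 0.829, 1.79 and 1.98 FPKM with TGFB1 against 3.20, 6.06 and 13.6 with vehicle, groups that did not overlap. Its change of -1.61 behaved likewise (adjusted p = 0.00357 with and 0.0901 without the block), and so did its interaction of 2.07 (adjusted p = 0.009 and 0.155).

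Among network chains Col8a1 rose and Col4a5 fell by similar amounts, and Col4a1 and Col4a2 did not pass the test. Col8a1, a short chain of networks in vessel walls and the cornea, had 167, 153 and 158 FPKM in TGFB1 against 124, 104 and 92.1 in Vehicle libraries (1.49-fold, log2 change 0.58, SE 0.09, adjusted p = 0.00128). In the knockout Col8a1 had 123.5, 114 and 113 FPKM with TGFB1 against 102, 106 and 97.6 with vehicle, without overlap, and its log2 change of 0.20 did not pass the test (adjusted p = 0.738). Col8a2 had 0.0522, 0.303 and 0.54 FPKM in TGFB1_KO, 0.0828, 0.0732 and 0.113 in Vehicle_Tgfbr2KO, 2.65, 2.90 and 3.23 in TGFB1 and 0.125, 0.291 and 0.967 in Vehicle libraries. This partner chain reached 1 FPKM in TGFB1 libraries alone, so it entered the test only through the group in which it was high. Its mean was 6.35-fold higher with TGFB1 than with vehicle, given as a description, since a gene that enters in this way had to differ. The interaction of Col8a1, -0.38, passed with the block (adjusted p = 0.025) and not without it (adjusted p = 0.0739).

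Col4a1, with Col4a2 the common chain pair of basement membranes, had 1067, 982 and 1071 FPKM in TGFB1 and 918, 806 and 948 in Vehicle libraries, a 1.17-fold higher mean without overlap. Its log2 change of 0.23 passed with the block (adjusted p = 0.0278) and not without it (adjusted p = 0.0539). Col4a2 changed by 0.12 in intact cultures (adjusted p = 0.23) and by 0.12 in the knockout, as did Col4a1 there. Col4a5, whose product replaces the common chains in specialised basement membranes, fell to 19.5, 20.2 and 17.2 FPKM with TGFB1, against 26.6, 30.8 and 26.6 with vehicle (log2 change -0.54, SE 0.10, adjusted p = 0.00232). In the knockout Col4a5 had 25.2, 20.3 and 22.1 FPKM with TGFB1 against 26.2, 22.6 and 25.4 with vehicle (log2 change -0.13), and its interaction of 0.41 did not pass without a block (adjusted p = 0.068). It passed with the number as a block within each genotype, a fit added after the data had been seen (adjusted p = 0.0117), and with FPKM rescaled to a common sum (adjusted p = 0.0311) or to upper quartiles (adjusted p = 0.0431). Col10a1, known from hypertrophic cartilage, stayed between 0.411 and 1.13 FPKM across the 12 libraries and had no called change.

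Col14a1 and Col12a1, FACITs that coat type I fibrils, fell with TGFB1 in intact cultures, and for both the change differed from that in the knockout. Col14a1 had 14.3, 17.4 and 26.4 FPKM in TGFB1_KO, 6.79, 13.6 and 9.15 in Vehicle_Tgfbr2KO, 3.72, 1.90 and 2.86 in TGFB1 and 24.4, 8.76 and 26.3 in Vehicle libraries. Every TGFB1 library was below every other library, and Vehicle replicate 2 was low within its group. Col14a1 fell 7.01-fold in intact cultures (log2 change -2.33, SE 0.40, adjusted p = 0.00165). Its knockout change ran the other way, at 0.91 with 3 of 3 TGFB1_KO libraries above all Vehicle_Tgfbr2KO ones, but did not pass (unadjusted p = 0.044, adjusted p = 0.738). Its interaction of 3.25 had an adjusted p of 0.00388 and was the widest difference in the positive direction among the chains. Col12a1 had 242, 238 and 233 FPKM in TGFB1_KO, 243, 255 and 206 in Vehicle_Tgfbr2KO, 150.0, 162 and 129 in TGFB1 and 246, 243 and 229.6 in Vehicle libraries. Col12a1 was steady in 3 groups and fell 1.63-fold with TGFB1 in intact cultures (log2 change -0.71, SE 0.09, adjusted p = 0.00036; interaction 0.73, adjusted p = 0.00479). Col16a1, the third FACIT tested, had 38.1, 35.2 and 35.6 FPKM with TGFB1 against 22.4, 21.6 and 32.2 with vehicle. Its log2 change of 0.52 passed with the block (adjusted p = 0.0296) and not without it (adjusted p = 0.0893). In the knockout the log2 change of Col16a1 was 0.35 (adjusted p = 0.738), and its interaction was -0.17 (adjusted p = 0.738).

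The type VI chains, which assemble as one heterotrimer of 3 different chains, moved apart. Col6a3 had 103, 99.0 and 104 FPKM in TGFB1_KO, 102, 109.8 and 97.1 in Vehicle_Tgfbr2KO, 232, 261 and 242 in TGFB1 and 152, 158 and 169 in Vehicle libraries. Col6a1 had 52.1, 64.9 and 134 FPKM in TGFB1_KO, 39.2, 56.9 and 63.7 in Vehicle_Tgfbr2KO, 29.7, 44.4 and 48.0 in TGFB1 and 75.0, 74.0 and 132 in Vehicle libraries. Col6a2 had 18.0, 23.7 and 55.2 FPKM in TGFB1_KO, 12.0, 19.0 and 21.3 in Vehicle_Tgfbr2KO, 6.40, 11.2 and 13.1 in TGFB1 and 25.5, 28.0 and 58.4 in Vehicle libraries. Col6a3 was highest in TGFB1 libraries with no overlap with any other group, whereas Col6a1 and Col6a2 were lower in TGFB1 than in Vehicle libraries, and Vehicle and TGFB1_KO replicate 3 were far above the other libraries of their groups. Col6a3 rose 1.53-fold (log2 change 0.61, SE 0.06, adjusted p = 8.61e-05), and its interaction was -0.63 (adjusted p = 0.0015). Col6a1 fell 2.30-fold (log2 change -1.16, adjusted p = 0.0325; interaction 1.71, adjusted p = 0.0425) and Col6a2 3.65-fold (log2 change -1.72, adjusted p = 0.0136; interaction 2.45, adjusted p = 0.023). The call of Col6a1 was lost without Vehicle replicate 3 (adjusted p = 0.110) or without any of the TGFB1 libraries (0.118, 0.0578 and 0.0501 without replicates 1, 2 and 3), and that of Col6a2 without TGFB1 replicate 1 (0.0570). With no filter on low genes Col6a1 also missed the threshold (0.0547). With the block both were kept, at adjusted p = 0.00112 and 0.000244. The interaction of Col6a1 was lost with no filter (0.0709) and without any 1 of 10 libraries, all but Vehicle_Tgfbr2KO replicate 3 and TGFB1_KO replicate 1 (0.0535 to 0.101), and that of Col6a2 without replicate 1 of TGFB1 (0.0599) or of Vehicle_Tgfbr2KO (0.0579). Col6a1 and Col6a2 are neighbours on chromosome 10 in RefSeq (GRCm38.p6), and Col6a3 is on chromosome 1. By contrast, the neighbours Col3a1 and Col5a2 on chromosome 1 changed with opposite sign (-1.05 and 0.77), and only the change of Col5a2 passed without the block.

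Col7a1, whose product forms the anchoring fibrils beneath squamous epithelia, had the smallest p of all chains in the intact comparison. Col7a1 had 4.94, 7.05 and 5.93 FPKM in TGFB1_KO, 5.19, 5.501 and 3.91 in Vehicle_Tgfbr2KO, 50.2, 59.2 and 45.5 in TGFB1 and 6.40, 7.14 and 7.42 in Vehicle libraries. The TGFB1 libraries were separated from all 9 others by a wide gap. It rose 7.39-fold (log2 change 2.71, SE 0.14, adjusted p = 1.56e-06), changed by 0.25 in the knockout (adjusted p = 0.738) and had an interaction of -2.47 (adjusted p = 8.19e-05). Of the multiplexins, proteoglycan collagens of the basement membrane zone, Col18a1 had 11.6, 11.5 and 15.3 FPKM with TGFB1 against 20.6, 15.3 and 31.6 with vehicle. It was lower in 3 of 3 same-numbered pairs, and its log2 change of -0.72 passed with the block (adjusted p = 0.0258) and not without it (adjusted p = 0.0839). Its interaction of 1.21 did likewise (adjusted p = 0.0177 with and 0.0667 without the block). Col15a1, at 1.39, 0.517 and 1.79 FPKM with TGFB1 and 1.39, 1.16 and 5.19 with vehicle, did not pass (log2 change -0.56, adjusted p = 0.41).

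TGFB1 against vehicle within Tgfbr2KO cultures gave no called chain, higher or lower, and the share over all tested genes was 0% in both directions. Of the 24 chains 1, Col14a1, was higher at an unadjusted p under 0.05 and 0 lower, and over all genes 499 were higher and 249 lower at that level. Most point estimates were nonetheless positive, for 22 of 24 chains against 50% of all tested genes, with a median log2 change of 0.38 against 0.00. For Col8a1 and Col14a1 all 3 TGFB1_KO libraries were above all Vehicle_Tgfbr2KO ones, 2 of 24 chains against 6.6% of all genes. TGFB1_KO exceeded the same-numbered Vehicle_Tgfbr2KO library for 19, 18 and 23 of 24 chains in replicates 1, 2 and 3, where the shares of all genes were 53.1%, 52.1% and 48.8%. Replicate 3 of TGFB1_KO carried much of the size, since without it the median was 0.16 with 21 of 24 positive, and without Vehicle_Tgfbr2KO replicate 1 it was 0.23 with 22 of 24 positive. The count of positive chains was lowest without Vehicle_Tgfbr2KO replicate 3, at 20 of 24, with a median of 0.42. The largest estimates were 1.07 for Col3a1, 0.91 for Col14a1, 0.80 for Col1a2 and 0.73 for Col6a2, with adjusted p = 0.738 for each. Col6a3 and Col12a1 had the narrowest 95% intervals among the chains called in the intact comparison, -0.16 to 0.13 and -0.18 to 0.23. The chains share libraries and are not independent, so these counts were not tested.

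Vehicle-treated Tgfbr2KO cultures against vehicle-treated intact cultures show what differs without added ligand. The estimates of all 24 chains were below 0, and only that of Col6a3 passed the test without the replicate block. Col6a3 had 102, 109.8 and 97.1 FPKM in Vehicle_Tgfbr2KO against 152, 158 and 169 in Vehicle libraries, which did not overlap, and was 1.55-fold lower (log2 difference -0.63, SE 0.06, adjusted p = 0.0103). That is 1 of 24 chains lower, against 0.72% of all tested genes, and 0 higher, against 0.522%, with 12 chains lower and 0 higher at an unadjusted p under 0.05, where 1467 of all genes were lower and 1302 higher. The call was lost without Vehicle replicate 3 (adjusted p = 0.0583), without Vehicle_Tgfbr2KO replicate 1 (0.0660) and when only these 2 groups were fitted (0.117). Without TGFB1_KO replicate 3, which enters through the shared spread, 7 chains were lower. That omission also raised the number of called genes over all tested genes, as given in the last section, so the 7 are not read as particular to collagen chains. The estimates below 0, 24 of 24, compare with 50.5% of all tested genes, and their median was -0.61 against 0.00. Without any 1 library of these groups 22 to 24 chains stayed below 0, with medians from -0.68 to -0.45. For 15 of 24 chains all 3 Vehicle_Tgfbr2KO libraries were below all Vehicle libraries, against 15.6% of all genes. The knockout library was below the same-numbered Vehicle library for 24, 18 and 22 chains in replicates 1, 2 and 3, where the shares of all genes were 51.6%, 52.6% and 48.2%.

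Col1a1 had 845, 1395 and 1329 FPKM in Vehicle_Tgfbr2KO against 2546, 2165 and 3881 in Vehicle libraries, 2.41-fold apart in means, with a log2 difference of -1.26 that just missed the threshold (adjusted p = 0.0671). Col1a2 differed by -1.40 (adjusted p = 0.125), Col3a1 by -1.85 (0.142), Col5a1 by -0.96 (0.0544), Col5a2 by -0.66 (0.0948), Col4a1 by -0.35 (0.0636) and Col4a2 by -0.31 (0.066), and for each of these the groups did not overlap. With the replicate block Col1a1 passed (adjusted p = 0.0121), as did Col1a2 (0.0208), Col3a1 (0.0171), Col5a1 (0.0124), Col5a2 (0.0180), Col4a1 (0.0185) and Col4a2 (0.0219). So did Col5a3, Col6a1, Col6a2, Col7a1, Col11a1, Col16a1 and Col24a1 (0.0190 to 0.0440). The block raised the calls over all genes as well, so these calls are not read as particular to collagen chains. Same-numbered libraries of these groups did not run together in replicate 2. The smallest differences were those of Col10a1 (-0.02), Col12a1 (-0.03) and Col8a1 (-0.06), and the 95% interval of Col12a1 ran from -0.24 to 0.17. Over the same groups the summed markers of smooth muscle and pericytes were 5123 to 5592 FPKM in Vehicle_Tgfbr2KO and 5191 to 6430 in Vehicle libraries. No marker of any cell type passed the test here. Of the 7 fibroblast markers other than collagens, Dcn (log2 difference -1.09, adjusted p = 0.175) and Pdgfra (-0.98, 0.176) were lower and Pdpn (0.75, 0.104) was higher at an unadjusted p under 0.05. Dcn, a small proteoglycan of collagen fibrils, had 157, 285 and 326 FPKM in Vehicle_Tgfbr2KO against 556, 322 and 793 in Vehicle libraries. Among the 9 leukocyte markers the largest difference was 4.44 for S100a8 (adjusted p = 0.0705). The median of the 9 was -0.11 and the lowest -0.28, so S100a8 does not stand for the list. The epithelial keratin Krt8 had 25.8, 0 and 0.0542 FPKM in Vehicle_Tgfbr2KO and was at 0 in all Vehicle libraries. Vehicle_Tgfbr2KO replicate 1, with 25.8 FPKM, was the lowest of its group for 14 of 24 chains. TGFB1_KO replicate 1, with Krt8 at 7.80 FPKM, was the lowest of its group for 16 chains, and Vehicle replicate 2, with Krt8 at 0, for 15. The part of these markers in the collagen differences was not tested.

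With TGFB1 added, the genotypes differed for most chains. In TGFB1_KO against TGFB1 cultures, 13 of 24 chains, Col8a2 among them, were lower (54.2%, against 18.3% of all tested genes) and 4 were higher (16.7%, against 15.6%), with a median of -0.45 against -0.01. Lower in TGFB1_KO were the 9 chains that rose with TGFB1 in intact cultures and Col1a1, Col4a1, Col4a2 and Col16a1, and higher were Col12a1, Col14a1, Col6a2 and Col18a1. This comparison shares the TGFB1 libraries with that of TGFB1 against Vehicle, so the calls of the 2 are not independent. On the log2(FPKM + 1) scale the largest differences were -3.40 for Col5a3 (11.1-fold lower), -3.07 for Col11a1 (7.93-fold lower) and -2.92 for Col7a1 (8.65-fold lower, adjusted p = 5.94e-07). Col1a1 had 1166, 1469 and 2478 FPKM in TGFB1_KO against 3737, 4110.4 and 4291 in TGFB1 libraries, 2.37-fold lower and without overlap (log2 difference -1.32, SE 0.30, adjusted p = 0.00647). Col4a1 (-0.46, adjusted p = 0.0015) and Col4a2 (-0.31, adjusted p = 0.00736) were lower by a smaller margin, and the call of Col4a2 was lost when FPKM were rescaled to a common sum (adjusted p = 0.0646). Col14a1 was 6.84-fold higher (2.40, adjusted p = 0.00112) and Col6a2 3.16-fold higher (1.46, adjusted p = 0.0267). Of the 9 smooth muscle and pericyte markers 6 were lower and 1 higher in TGFB1_KO than in TGFB1. Of the 7 fibroblast markers other than collagens Pdgfra (log2 difference 2.71), Fbln1 (1.65) and Pdpn (0.79) were higher and Vim (-0.63) was lower. Of the 9 leukocyte markers S100a8 (5.69) and Cd14 (0.99) were higher, as was the epithelial Krt19 (1.24), and the chondrocyte marker Sox9 (-0.67) was lower. The part of these markers in the collagen differences was not tested. Without TGFB1_KO replicate 3, or without TGFB1 replicate 1 or 2, only 2 chains were called higher, as the calls of Col6a2 (adjusted p = 0.0768, 0.101 and 0.0517) and Col18a1 (0.0795, 0.0773 and 0.0759) were lost, and Col16a1 was no longer called without TGFB1 replicate 1 or TGFB1_KO replicate 1 or 2 (0.0577, 0.0636 and 0.0662). Col18a1 was also lost without TGFB1_KO replicate 2 (0.0623) and Col6a2 with only these groups fitted (0.0577).

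**Figure D3:**
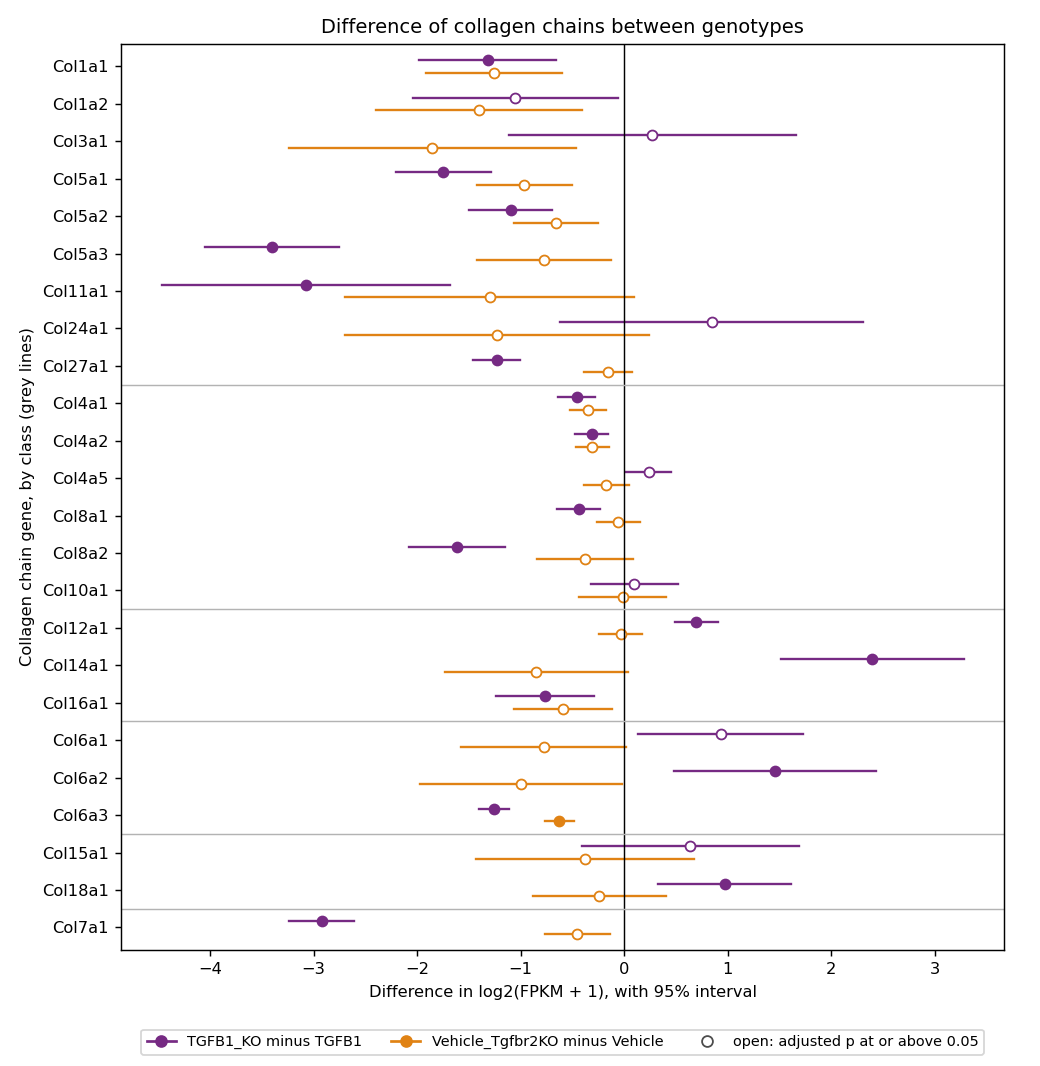
Difference of the 24 tested chains between genotypes, in log2(FPKM + 1) with its 95% interval, for TGFB1_KO minus TGFB1 (purple, above) and Vehicle_Tgfbr2KO minus Vehicle (orange, below); filled points have an adjusted p under 0.05. All 24 orange points lie left of 0 and 1 is filled, Col6a3, while 17 purple points are filled, 13 left and 4 right of 0.

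Since FPKM is a level per length, chains of one trimer can be set against each other within a library. The type I ratio of Col1a1 to Col1a2 was 1.71 ± 0.353 in TGFB1_KO, 2.13 ± 0.415 in Vehicle_Tgfbr2KO, 2.02 ± 0.0326 in TGFB1 and 1.90 ± 0.196 in Vehicle cultures, with overlapping groups. Textbook type I holds a pair of α1 chains for each α2, but FPKM ratios are not read as trimer composition here. Type VI, with 1 chain of each kind, had Col6a1 per Col6a2 at 2.61 ± 0.344 in Vehicle cultures. The ratio of Col4a1 to Col4a2 was the steadiest, between 1.48 and 1.67 over all 12 libraries, and was higher in all TGFB1 libraries (1.59 to 1.67) than in all Vehicle ones (1.502 to 1.54). Within type V, Col5a3 per Col5a1 was 0.0574 ± 0.0128, 0.0482 ± 0.00773, 0.194 ± 0.0116 and 0.0446 ± 0.00377 in TGFB1_KO, Vehicle_Tgfbr2KO, TGFB1 and Vehicle cultures, and the 3 TGFB1 libraries (0.187 to 0.208) stood above all others. Col5a1 per Col5a2 was likewise higher with TGFB1, at 0.78 to 0.883 in TGFB1 and 0.583 to 0.658 in Vehicle libraries. Within type VI, Col6a3 per Col6a1 was 5.03 to 7.83 in TGFB1 libraries and 1.29 to 2.13 in Vehicle ones, while Col6a1 per Col6a2 was 3.68 to 4.63 in TGFB1 and 2.25 to 2.94 in Vehicle libraries. The ratio of Col3a1 to Col1a1 was 0.34 ± 0.166, 0.214 ± 0.0605, 0.105 ± 0.0116 and 0.326 ± 0.106 in TGFB1_KO, Vehicle_Tgfbr2KO, TGFB1 and Vehicle cultures, lowest in all 3 TGFB1 libraries. Ratios were not tested.

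**Figure D4:**
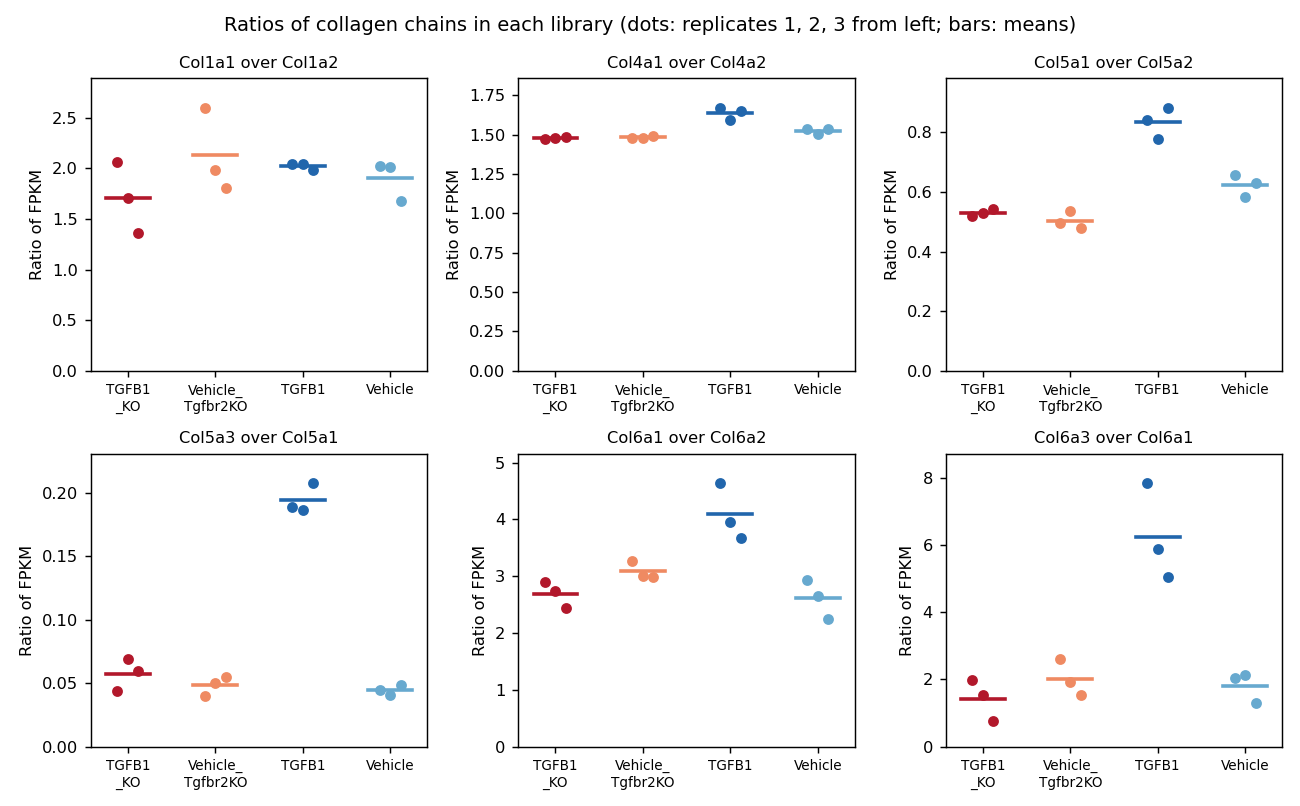
Ratios of FPKM between chains of one collagen type in each library (dots, replicates 1 to 3 from the left) with group means (bars), on axes from 0. TGFB1 libraries stand above all others for Col5a3 over Col5a1, Col5a1 over Col5a2, Col6a3 over Col6a1 and Col6a1 over Col6a2, while the groups overlap for Col1a1 over Col1a2.

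Genes that process collagens were read from lists beside the chains, and values in brackets beside them are log2 changes that passed the test. With TGFB1 in intact cultures, 6 of 14 tested hydroxylation and glycosylation genes rose and 0 fell, as did 9 and 0 of 11 genes of folding and export, 4 and 0 of 5 of cross-linking, and 4 and 2 of 6 of propeptide cleavage, against 17.3% and 14.6% of all genes. The median log2 changes of these lists were 0.34, 0.39, 1.24 and 1.04, against 0.02 over all genes. P3h1, a prolyl 3-hydroxylase, rose to 125 ± 5.55 FPKM with TGFB1, against 67.7 ± 6.24 with vehicle (log2 change 0.87), and Colgalt1, which adds galactose to hydroxylysine, rose by 0.79, as did the prolyl 4-hydroxylase subunits P4ha2 (0.54) and P4hb (0.49). In folding and export the largest rises were those of the transcription factor Creb3l2 (0.92), the prolyl isomerases Fkbp10 (0.72) and Fkbp14 (0.61) and the vesicle coat gene Sec23a (0.59). The procollagen proteinases Tll1 (2.04), Adamts14 (1.56) and Bmp1 (0.99) rose and the N-proteinase Adamts2 fell (-1.03), while of the 2 enhancers of C-propeptide cleavage Pcolce2 rose (1.10) and Pcolce fell (-1.28). Lox, which oxidises lysines for cross-links, had 659, 622 and 591 FPKM with TGFB1 against 231, 212 and 275 with vehicle (log2 change 1.39), and Loxl2 (1.25), Loxl3 (1.24) and Loxl1 (0.60) rose as well.

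Of 7 tested collagen receptor genes 2 rose and 1 fell with TGFB1 in intact cultures (median 0.04), against 17.3% and 14.6% of all genes. Itga1, the α1 integrin subunit, fell (-0.91), and Itgb1, the shared β1 subunit (0.69), and Itga2, the α2 subunit (0.48), rose. Of 9 genes of collagen degradation 4 rose and 2 fell (median 0.70), against the same shares of all genes. The gelatinase Mmp9 had 185, 345 and 250.4 FPKM with TGFB1 against 38.8, 11.0 and 33.4 with vehicle (log2 change 3.32), the collagenase Mmp8 fell (-1.54) and the membrane-bound collagenase Mmp14 rose (0.58). Of the inhibitors Timp3 (1.20) and Timp1 (0.78) rose and Timp2 fell (-0.37). In Tgfbr2KO cultures no gene of these 6 lists passed the test, against 0% of all genes, with 6 higher and 0 lower at an unadjusted p under 0.05. At that level 499 of all 12641 tested genes were higher and 249 lower. The interaction was negative for 4 hydroxylation, 3 folding, 4 cleavage, 3 cross-linking, 1 receptor and 3 degradation genes and positive for 2 cleavage (Pcolce and Adamts2), 1 receptor (Itga1) and 1 degradation gene (Timp2), against 9.26% and 8.38% of all genes. Between vehicle groups, 1 hydroxylation gene (P3h4), 2 folding genes (Creb3l1 and Serpinh1, the collagen chaperone) and 1 cross-linking gene (Loxl1) were lower, and 1 degradation gene, the collagenase Mmp13, was higher in Vehicle_Tgfbr2KO than in Vehicle cultures, against 0.72% and 0.522% of all genes. With TGFB1 added, 7 of 14 hydroxylation, 8 of 11 folding, 4 of 6 cleavage, 4 of 5 cross-linking, 3 of 7 receptor and 4 of 9 degradation genes were lower in TGFB1_KO than in TGFB1 cultures, and 2 cleavage, 1 receptor and 2 degradation genes were higher, against 18.3% and 15.6% of all genes.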

How the data were processed

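Polyadenylated RNA of 12 cultures was sequenced after a column extraction, per the labels' protocols. The authors deposited 1 table of FPKM per gene symbol, for 25203 genes, of which 4702 are 0 throughout. Kallisto 0.46.1, DESeq2 1.40.1 and the build mm9 are named in the submitters' processing notes. How they led to the FPKM, which strand was counted and how libraries were scaled are not given in the sources used here, so neither depth nor counts are known, and reads of similar genes may be split between them. Table columns were matched to libraries by group and number.

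FPKM were taken as log2(FPKM + 1), which understates changes of low genes; folds are ratios of group means. Genes at 1 FPKM in 3 of 12 libraries (12641) were fitted with limma 3.58.1 (R 4.3.3), with a variance trend, over all 12 libraries (8 residual degrees of freedom), with Benjamini-Hochberg adjustment over all tested genes and a threshold of 0.05. The script was tested on simulated data. Named are members at 5 FPKM in a group mean or called in a comparison, the highest of the lower members, and, with values, up to 4 called genes of each list. Adamts2, Bmp1, Mmp14 and Timp2 and marker genes were added after their values were seen. Col28a1, Col13a1, Col4a3, Col10a1, Col15a1 and list genes given with no value were chosen after their values were seen. The members and lists were chosen with earlier results of these data known.

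All 4 groups carry the numbers 31, 121 and 123. Within a genotype, libraries with one number deviated together from their groups' means, with correlations of 0.391, 0.445 and 0.408 (replicates 1, 2 and 3) between TGFB1 and Vehicle and of 0.588, 0.227 and 0.529 between TGFB1_KO and Vehicle_Tgfbr2KO. Across genotypes same-numbered libraries ran together in replicates 1 and 3, and weakly or not at all in replicate 2. The correlations were 0.336, -0.0867 and 0.412 between Vehicle_Tgfbr2KO and Vehicle, and 0.337, 0.00945 and 0.276 between TGFB1_KO and TGFB1. They were 0.412, 0.167 and 0.607 between TGFB1_KO and Vehicle, and 0.333, -0.012 and 0.266 between Vehicle_Tgfbr2KO and TGFB1. Alternatives were the number as a block, pseudocounts of 0.1 and 0.5, no filter or 5 FPKM, upper-quartile and common-sum scaling, only the groups compared, no trend, and leaving out each library. Promoter sequences are from RefSeq, build GRCm38.p6, which is not the authors' build. Python 3.11.15, numpy 2.4.6, pandas 2.3.3, scipy 1.17.1 and matplotlib 3.10.9 were used.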

Additional observations from a re-analysis of the deposited data

Results flagged for a closer look

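For 9 of the 24 tested chains the TGFB1 change in Tgfbr2KO cultures differed from that in intact cultures by the interaction term of the limma fit, given here as the knockout change minus the intact change in log2, with the adjusted p over all tested genes. It was 3.25 for Col14a1 (0.00388), 2.45 for Col6a2 (0.023), 1.71 for Col6a1 (0.0425) and 0.73 for Col12a1 (0.00479), all of which fell with TGFB1 in intact cultures. It was -2.63 for Col5a3 (0.00236), -2.47 for Col7a1 (8.19e-05), -1.23 for Col8a2 (0.0182), -1.07 for Col27a1 (0.00104) and -0.63 for Col6a3 (0.0015), all of which rose there. Col8a2 passed the filter on low levels through TGFB1 libraries alone, so its value had to differ and is no support, and its call was lost with a pseudocount of 0.1 (adjusted p = 0.178) and with FPKM rescaled to a common sum (0.0577). The value of Col6a1 lost its call without 10 of the 12 libraries in turn (adjusted p up to 0.101), and that of Col6a2 without TGFB1 replicate 1 (0.0599) or Vehicle_Tgfbr2KO replicate 1 (0.0579). Summed smooth muscle and pericyte markers were 4146 to 6443 FPKM in TGFB1_KO, 5123 to 5592 in Vehicle_Tgfbr2KO, 8296 to 9376 in TGFB1 and 5191 to 6430 in Vehicle libraries, and their part in these differences was not tested.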

How the results depend on the processing

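No chain with a called change reversed under any alternative. With the replicate block, 8 chains fell with TGFB1 in intact cultures (5 without it), the interaction was positive for 7 and negative for 8 (4 and 5 without it), and 3658 of all genes had a called interaction (2230 without it). With the number as a block within genotype, a fit added after the data had been seen, these were 8, 8, 8 and 3558. Between Vehicle_Tgfbr2KO and Vehicle, the block gave 15 lower chains (1 without it) and 1897 called genes (157 without it). Same-numbered libraries of these groups deviated together in replicates 1 and 3 but not in replicate 2. Between TGFB1_KO and TGFB1, where the same was seen, the block added Col1a2 as lower (adjusted p = 0.0170) and Col6a1 as higher (0.00303). It lost no call of a chain.

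Lower chains in Vehicle_Tgfbr2KO numbered 2 with the filter at 5 FPKM and 0 with only the groups compared, and called genes numbered 71 with no filter, 102 with common-sum scaling, 0 with only the groups compared and 90 with no trend. With a pseudocount of 0.1, 1 gene was called with TGFB1 in the knockout. Common-sum scaling shifted the median log2 change of all genes with TGFB1 in intact cultures to -0.11. Leaving out 1 library at a time, chains that fell with TGFB1 in intact cultures ranged from 3 to 6, positive interactions from 2 to 5, called interactions over all genes from 1430 to 2454, lower chains in Vehicle_Tgfbr2KO from 0 to 7, called genes there from 0 to 759 (0 without Vehicle replicate 3, 759 without TGFB1_KO replicate 3), higher chains in TGFB1_KO against TGFB1 from 2 to 5, and called genes with TGFB1 in the knockout from 0 to 1. Chains not called with all 12 libraries but called after an omission were, with TGFB1 in intact cultures, Col16a1 and Col4a1 (without Vehicle replicate 3 or TGFB1_KO replicate 3), Col24a1 (without TGFB1_KO replicate 3) and Col18a1 (without Vehicle replicate 2). In the interaction they were Col18a1, Col5a1, Col8a1 and Col4a5, and in TGFB1_KO against TGFB1 they were Col1a2 (without TGFB1_KO replicate 3) and Col6a1 (without TGFB1_KO replicate 1). Between Vehicle_Tgfbr2KO and Vehicle they were Col1a1, Col16a1, Col4a1, Col4a2, Col5a1 and Col5a2 (without TGFB1_KO replicate 3), and Col5a1 also without Vehicle replicate 2. The cause of these changes was not tested.

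With 3 libraries a group, the median standard error of a log2 difference over all genes was 0.11, while those of Col3a1, Col11a1 and Col24a1 were 0.62, 0.63 and 0.66 (0.35, 0.35 and 0.31 with the replicate block). Depth is unknown.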
